A study of Mus musculus with 2 samples.

Results

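Barcodes rich in mitochondrial transcripts were examined in single-cell libraries of mouse induced myogenic progenitor cells, which are converted fibroblasts that divide as muscle precursors and give rise to contracting muscle in the same culture. A barcode marks the RNA of 1 droplet and thus, in most cases, of 1 cell, and RNA molecules are counted as unique molecular identifiers (UMIs). Barcodes were taken that had at least 1000 genes detected and more than 15% of their UMIs on the mitochondrial genome, here called high-mitochondrial. These were 1073 of the 14173 barcodes with that many genes, and of 15861 barcodes in all. They were divided by the summed share of 5 muscle genes, Acta1, Actc1, Myh3, Mylpf and Myl1: 680 reached 1% of all UMIs (the muscle side) and 393 did not (the other side). Each set was compared with the low-mitochondrial barcodes (at most 15%) of the same library and side. The members were thus chosen by their mitochondrial share and by the 5 genes, whose levels are given as description.

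The libraries came from 1 clone labelled MyoD-KO (KO) and 1 clone labelled MyoD-WT (WT), both made from mouse embryonic fibroblasts that were converted by overexpressing Myf6 with forskolin, RepSox and CHIR99021. The strain label of both clones is Myod1tm1Jae. Colonies that had become independent of Myf6 were picked and taken to passage 4, in medium with 5 µM forskolin, 5 µM RepSox, 3 µM CHIR99021 and 10 ng/mL bFGF. The KO library held 7670 barcodes and 282739488 UMIs and the WT library 8191 barcodes and 285232252 UMIs. Each genotype has 1 library and barcodes of a library are not replicates, so no test was made, no p-value is given, and all intervals are 95% intervals for counting error only. Genotype, clone and library cannot be told apart. Of the barcode sequences, 14 occurred in both libraries, and no high-mitochondrial muscle-side barcode was among them. Myod1, the gene named in the labels, was at 71.5 counts per 1000000 (CPM, defined below) in the high-mitochondrial and 74.2 CPM in the low-mitochondrial KO muscle-side barcodes, against 200.2 and 200.3 CPM in those of WT. No label gives the deleted stretch of the gene, so UMIs at its 3′ end are no check of the genotype.

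Mitochondria carry their own small genome, which encodes core subunits of the respiratory chain and the RNAs of the mitochondrial ribosome, while most mitochondrial proteins are encoded in the nucleus. Differentiated muscle is rich in mitochondria. A droplet that holds a damaged cell can also carry a large share of mitochondrial RNA, because cytoplasmic RNA is lost more easily, and such barcodes are for this reason often filtered out.

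High-mitochondrial barcodes were more frequent on the muscle side of both libraries. In the KO library 571 of 1729 muscle-side barcodes lay above 15% (33.0%, exact interval 30.8 to 35.3), against 206 of 4830 on the other side (4.27%, 3.71 to 4.87). In the WT library the counts were 109 of 1283 on the muscle side (8.50%, 7.03 to 10.2) and 187 of 6331 on the other side (2.95%, 2.55 to 3.4). The muscle-side share was thus higher in KO than in WT beyond counting error.

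The share was not higher in every next bin of muscle transcripts. In KO it was 0.396% where the 5 genes took less than 0.1% of UMIs, 11.6% between 0.1 and 0.3%, 33.0% between 0.3 and 1%, and between 29.4 and 38.3% in all bins above 1%. In WT it was 1.52%, 6.31% and 15.8% in the same first bins, then 12% between 1 and 2%, 8.15% between 2 and 4%, 5.84% between 4 and 6% and 4.65% (2 of 43 barcodes) between 6 and 8%. In WT the highest value thus lay just below the 1% limit, although its interval (12.4 to 19.7) overlaps that of the next bin (8.67 to 16). Mitochondrial UMIs enlarge the total against which the 5 genes are counted: of the high-mitochondrial other-side barcodes, 94 of 206 in KO (45.6%) and 30 of 187 in WT (16%) would reach 1% of their non-mitochondrial UMIs, against 5 of 4624 and 16 of 6144 low-mitochondrial ones. The other side is therefore not free of muscle transcripts. Counted against non-mitochondrial UMIs, the KO share above 15% was 52.6% where the 5 genes took 1 to 2%, 26.7% at 4 to 6% and 50.2% at 8% or more, and the WT share was 15.4% at 1 to 2% and 9.04% at 4 to 6%.

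**Figure D1:**
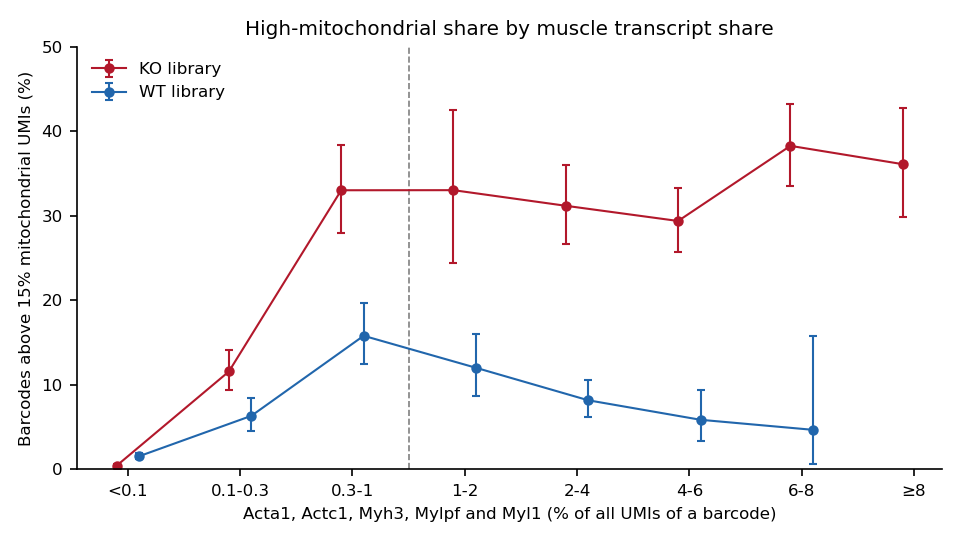
Share of barcodes above 15% mitochondrial UMIs (y axis, %) by the summed share of Acta1, Actc1, Myh3, Mylpf and Myl1 (x axis, % of all UMIs), in the KO (red) and WT (blue) libraries, with exact 95% intervals for counting error. The dashed line is the 1% limit between the other side and the muscle side, and bins of fewer than 20 barcodes are left out. The KO share stays between 29.4 and 38.3% in every bin above 0.3%, and the WT share is highest, at 15.8%, between 0.3 and 1%.

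Neither limit fell in a gap. Just outside and just inside the mitochondrial limit, 72 KO muscle-side barcodes lay at 14 to 15% and 67 at 15 to 16%, and in WT 19 and 16. Just below and just above the muscle limit, 8 KO high-mitochondrial barcodes lay at 0.9 to 1.0% and 5 at 1.0 to 1.1%, and in WT 4 and 6.

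All high-mitochondrial sets were shallower than their low-mitochondrial counterparts, the KO muscle side least so. Mitochondrial and non-mitochondrial UMIs make up the share by which the sets were chosen, so their levels are description. With a mitochondrial limit of 10%, the KO muscle-side ratio of median non-mitochondrial UMIs was 1.16 in place of 0.759. In KO the high-mitochondrial muscle side had a median of 33601 non-mitochondrial UMIs, against 44294 in the low-mitochondrial set, and 5237 against 5808 genes. In WT the medians were 15025 against 35204 non-mitochondrial UMIs. On the other side they were 4796 against 36840 in KO and 5452 against 32822 in WT. Mitochondrial UMIs were more numerous in all 4 high-mitochondrial sets, with medians of 8710 against 4946 on the KO muscle side, 4800 against 3288 on the WT muscle side, 5664 against 3026 on the KO other side and 3906 against 2376 on the WT other side. Median mitochondrial shares were 19.8% in the KO and 20.6% in the WT high-mitochondrial muscle-side sets, and 54.4% and 43.0% in those of the other side.

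Along the mitochondrial share, the non-mitochondrial UMIs of the muscle side were fewer in each bin above 10%, while the mitochondrial UMIs of KO stayed within a narrow range. In KO the median of non-mitochondrial UMIs was 48755 at 10 to 15%, 40446 at 15 to 20%, 32046 at 20 to 30%, 12619 at 30 to 50% and 6082 above 50%. The median of mitochondrial UMIs in the same bins was 6773, 8246, 9565, 7882 and 8517. Of the 571 KO barcodes 475 lay between 15 and 30%, and of the 109 WT barcodes 85. The lowest bin, up to 5%, stood apart: its 281 KO barcodes had a median of 5654 non-mitochondrial and 41 mitochondrial UMIs, and its 163 WT barcodes 12508 and 96. Leaving out its low-mitochondrial barcodes moved no count of higher or lower genes by over 1.5 times.

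**Figure D2:**
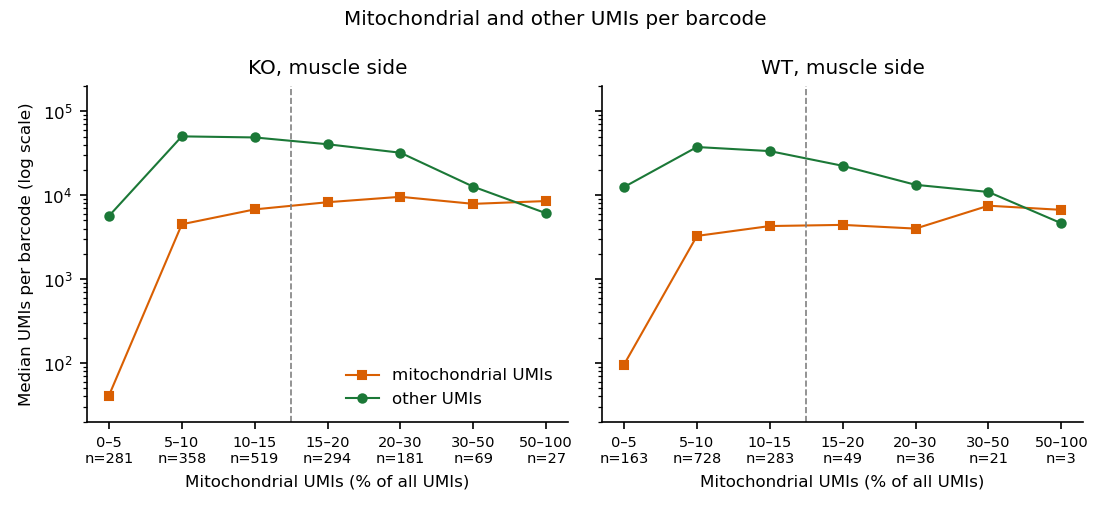
Median mitochondrial (orange squares) and non-mitochondrial (green circles) UMIs per muscle-side barcode (y axis, log scale) by mitochondrial share (x axis, % of all UMIs), in the KO library (left) and the WT library (right), with the number of barcodes in each bin. The dashed line is the 15% limit. Above it, the KO median of non-mitochondrial UMIs goes down through 40446, 32046, 12619 and 6082, while that of mitochondrial UMIs stays between 7882 and 9565.

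The markers of the label are given as description, because mt-Co1 and Acta1 entered the choice of barcodes and only Ckm did not. On the high-mitochondrial muscle side, mt-Co1 (subunit of cytochrome c oxidase), Acta1 (skeletal muscle actin) and Ckm (muscle creatine kinase) were all present, with Acta1 at 21118 in KO and 8536 in WT and Ckm at 1607 in KO and 466 in WT. These and all other levels are UMIs summed over a set and divided by its non-mitochondrial UMIs, in CPM, because the choice of barcodes fixes the mitochondrial share. Defining markers of most other lineages were low, but the smooth muscle sum was not, being mostly Acta2. The 4 markers summed to 247 against 857 CPM on the KO and 1696 against 2352 CPM on the WT muscle side. Acta2 made up 239 against 806 CPM and 1602 against 2134 CPM of these sums. Cnn1 was at 0 in both high-mitochondrial sets, and Cnn1 and Myh11 were each at most 0.514 CPM in every muscle-side set. The part of the smooth muscle markers in the results was not tested. Summed neural and cartilage markers were at most 19.0 and 37.6 CPM in any set. The summed defining markers of immune, endothelial, erythroid and adipocyte cells were each at most 4.76 CPM in the high-mitochondrial sets and at most 4.11 CPM in the low-mitochondrial ones. The longer immune list of 8 genes summed to 110 against 81.3 CPM on the KO muscle side and 125 against 124 CPM on the WT muscle side, of which Fcer1g made up 108 against 79.0 CPM and 123 against 122 CPM. Summed fibroblast markers were 1.86 against 7.03 CPM on the KO muscle side and 5.03 against 6.64 CPM on the WT muscle side, with Col1a1 at 0 in both high-mitochondrial sets and in the WT low-mitochondrial set.

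On the muscle side the high-mitochondrial barcodes held more RNA of many muscle genes, some of fast fibres, and less of G2M genes than the low-mitochondrial ones. Fast genes did not all differ. Tnnt3, fast troponin T, was at 3196 against 2327 CPM in KO and 2040 against 1897 CPM in WT. The chosen gene Mylpf had log2 ratios of 0.33 in KO and -0.02 in WT. A gene was counted as higher or lower when the sets differed at least 2-fold and the higher one had at least 50 CPM, with mitochondrial genes and the 5 chosen muscle genes left out. A gene can reach 50 CPM in the higher set only, so counts of list members are description. In KO 50 of 3069 genes were higher (1.63%) and 42 lower (1.37%). In WT 394 of 3382 were higher (11.6%) and 37 lower (1.09%). The median log2 ratio over all genes with at least 10 CPM was -0.04 in KO and 0.33 in WT. Of the genes counted as higher, 28 were shared, which is 56.0% of the KO and 7.11% of the WT genes, and of the lower ones 9 were shared.

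These WT counts depend on the scaling. With TMM factors, which centre the bulk of the genes, WT had 85 higher and 301 lower genes, a shift of -0.43 on the log2 scale, and with all UMIs as the denominator 153 and 106. In KO, TMM shifted the ratios by 0.02 only, and with all UMIs the higher genes made up 26.0% of those counted, against 54.3%.

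The highest shared ratios belonged to fast muscle genes. Parvalbumin (Pvalb), the calcium buffer of fast fibres, was at 369 against 89.1 CPM in KO (ratio 4.15, 3.99 to 4.30) and at 188 against 25 CPM in WT (7.52, 6.67 to 8.46). Myh4, the myosin heavy chain of the fastest fibres, was at 1318 against 353 CPM in KO (3.73, 3.66 to 3.8) and at 513 against 76.0 CPM in WT (6.75, 6.29 to 7.25). Both stood higher in the high-mitochondrial set of either clone. Tmod4, which caps thin filaments in muscle, was at 165 against 53.7 CPM in KO and at 55.8 against 13.3 CPM in WT. Myoz1, a Z-disc protein of fast fibres, was at 607 against 214 CPM in KO and at 196 against 72.6 CPM in WT. Cmya5, a large muscle scaffold protein, was at 191 against 67.0 CPM in KO and at 84.0 against 15 CPM in WT. The other shared genes named here are Ppp1r3c (glycogen targeting subunit of a phosphatase), Sypl2 (triad junction protein), Amot, Myot (Z-disc), Atp1b4, Slc4a3 and Ctnna3, with log2 ratios of 1.26 to 1.5 in KO and 1.39 to 2.11 in WT.

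Some leading genes reached 50 CPM in 1 clone only. In KO, Gabrd (a GABA receptor subunit) was at 53.8 against 12.2 CPM, Gpd1 (cytosolic glycerol-3-phosphate dehydrogenase) at 61.8 against 16 CPM, and Mybpc2 (fast myosin-binding protein C) at 83.3 against 23.8 CPM. In WT these 3 were below 50 CPM but also had positive ratios, Gabrd at 10.6 against 2.48 CPM, Gpd1 at 14.6 against 1.23 CPM and Mybpc2 at 30.7 against 1.1 CPM. The leading WT genes included Rn18s-rs5, annotated as related to 18S ribosomal RNA, at 3394 against 683 CPM, Xirp2 (muscle actin-binding) at 320 against 73.5 CPM, and Kcnn3, Ano5, Gphn, Rbfox1 and Cdh2 with log2 ratios of 2.02 to 2.25. With a muscle limit of 5%, Ano5, Cdh2 and Ctnna3 were at -0.13, -1.85 and -1.38 in WT. In KO Rn18s-rs5 was at 3885 against 2311 CPM, and these 5 genes had log2 ratios of -0.34 (Cdh2) to 1.06 (Rbfox1). Rn18s-rs5 can share reads with other ribosomal RNA copies, so its level is uncertain.

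By gene list, 9 of 44 sarcomere genes beyond the 5 used for the choice were higher in KO and 19 of 44 in WT. No member was lower, and the share of all genes that were higher was 1.63% in KO and 11.6% in WT. The median log2 ratio of the list was 0.48 in KO and 0.83 in WT. Among heavy chains, the perinatal Myh8 was at 4756 against 2246 CPM in KO and 3601 against 1249 CPM in WT. The fast Myh1 was at 4828 against 2914 CPM in KO (log2 ratio 0.73) and at 1242 against 403 CPM in WT (1.62). The slow-fibre genes of the list named next were chosen after their values were seen. Tnnt1, slow troponin T, was at 582 against 722 CPM in KO and 1536 against 1986 CPM in WT, and Tnnc1, slow troponin C, at 2924 against 3617 CPM in KO and 3273 against 3401 CPM in WT. Myh7, the slow heavy chain, was at 104 against 163 CPM in KO and 461 against 232 CPM in WT. Myh7b, another slow-type heavy chain, had positive log2 ratios in both clones, 0.30 in KO and 1.83 in WT.

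Genes of calcium handling and energy supply had like ratios. For the counts that follow, the shares over all genes were 1.63% higher and 1.37% lower in KO and 11.6% and 1.09% in WT. Of the sarcoplasmic reticulum list, 2 of 19 were higher in KO and 12 of 20 in WT (medians 0.41 and 1.08). Casq1, the calcium store protein of fast fibres, was at 606 against 272 CPM in KO and 524 against 173 CPM in WT. The calcium release channel Ryr1 was at 574 against 307 CPM in KO and 668 against 212 CPM in WT. Of the creatine kinase and muscle enzyme list, 2 of 17 were higher and 1 lower in KO, and 6 of 15 higher in WT (medians 0.65 and 1.03). Pygm, muscle glycogen phosphorylase, was at 506 against 215 CPM in KO and 225 against 65.0 CPM in WT. Ckm itself was at 1607 against 1011 CPM in KO (log2 ratio 0.67) and 466 against 188 CPM in WT (1.31). Ckb, the brain-type creatine kinase used before the muscle form, was the lower member in KO, at 246 against 566 CPM, and was at 48.8 against 90.2 CPM in WT. The acetylcholine receptor and junction list had 0 of 5 higher in KO and 3 of 8 in WT, Musk, Chrng and Chrnb1, whose log2 ratios were -0.60, -0.11 and -2.55 with a muscle limit of 5%.

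Genes of the earlier steps of differentiation were mixed. Of the commitment and fusion list, 0 of 17 members were higher and 1 lower in KO. In WT 1 of 18 was higher and 1 lower. Of all genes, 1.63% were higher and 1.37% lower in KO, and 11.6% and 1.09% in WT. In WT 13 of 18 members had positive ratios, but the median over all genes was positive too, at 0.33. Cdkn1c (p57), which holds committed myocytes out of the cell cycle, was at 620 against 1680 CPM in KO (0.369, 0.362 to 0.376) and at 883 against 1949 CPM in WT (0.453, 0.432 to 0.475). It was lower in both clones. Myog, the driver of terminal differentiation, was at 639 against 1149 CPM in KO and 952 against 1134 CPM in WT. The fusion gene Mymx was at 69.6 against 129 CPM in KO and 177 against 265 CPM in WT. Myf6, the late myogenic factor that was also the conversion gene, was at 161 against 102 CPM in KO and 60.9 against 30.8 CPM in WT. Myod1 was at 71.5 against 74.2 CPM in KO and 200.2 against 200.3 CPM in WT. Over the commitment and fusion list the median log2 ratio was -0.18 in KO and 0.38 in WT, the second turning to -0.05 with TMM factors.

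G2M genes were lower in both clones. Of the 4 G2M genes with at least 50 CPM, 3 were lower in KO and 4 in WT, where 1.37% and 1.09% of all genes were lower. Top2a and Ube2c reached 50 CPM in the low-mitochondrial sets only, so these counts are given as description. The list medians were -1.30 and -2.10, the second turning to 0.19 with a muscle limit of 5%. Top2a, needed to separate chromosomes, was at 22.6 against 56.8 CPM in KO and 12.1 against 61 CPM in WT. Ube2c, which marks mitotic proteins for destruction, was at 19.6 against 53.6 CPM in KO and 20.1 against 86.8 CPM in WT. Weighted to the muscle share, the G2M medians were -0.44 in KO and -1.66 in WT, and weighted to depth -0.53 and -1.14. No S phase gene reached 50 CPM, and their medians were -0.55 and -1.37, or -0.08 and -0.13 with the highest doublet scores removed. Pax7, the progenitor factor, was at 12.8 against 24.6 CPM in KO and 5.03 against 20.4 CPM in WT, from 248 and 10 UMIs in the high-mitochondrial sets. Its log2 ratio of -0.94 in KO was -0.26 with weighting to the muscle share and -0.27 with weighting to depth, and that of -2.02 in WT was -1.59 and -0.87. The progenitor list had medians of -0.46 in KO and -0.00 in WT, or -0.03 and 0.66 with the highest doublet scores removed. The 4 progenitor markers, Pax7 among them, summed to 108 against 138 CPM in KO and 127 against 115 CPM in WT. The replication-linked genes Pclaf, Cks1b and H2ac24 were among the lowest in WT, H2ac24 at 11.1 against 119.5 CPM.

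Among the lowest KO ratios were those of Slpi (secreted protease inhibitor, 17.6 against 162 CPM), Spp1 (osteopontin, 89.2 against 569 CPM), Tagln (smooth muscle actin-binding protein, 8.65 against 51.3 CPM), Sct (secretin, a peptide hormone, 16.3 against 55.5 CPM) and Acta2 (smooth muscle actin, 239 against 806 CPM). Col3a1 and Col6a3, of the fibroblast matrix list, were at 36.0 against 89.7 CPM and 18.4 against 58.5 CPM. Doublet scores move with some of these values. Scrublet, which marks barcodes that look like 2 cells, called 217 of 6559 barcodes in KO and none of 7614 in WT, where it is therefore not reliable. It marked 17 of the 571 high-mitochondrial and 110 of the 1158 low-mitochondrial KO barcodes on the muscle side, and with the 6% highest scores of each library removed the log2 ratio of Slpi was 0.57 in place of -3.20, that of Timp1 (metalloproteinase inhibitor) 0.02 in place of -1.51, that of Spp1 -0.39 in place of -2.67 and that of Col6a3 -0.54 in place of -1.67. Tagln, Acta2 and Cdkn1c were at -2.58, -1.91 and -1.63 with them removed. The G2M medians were -0.83 in KO and -0.85 in WT then.

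Muscle content moves with these results too. The 5 chosen genes took a median of 6.96% of non-mitochondrial UMIs in the high-mitochondrial KO barcodes against 5.63% in the low-mitochondrial ones, and 3.44% against 3.23% in WT. With the low-mitochondrial barcodes weighted to the same muscle share, an alternative added after the data were seen, 15 genes were higher and 5 lower in KO. Pvalb and Myh4 were then at log2 ratios of 1.28 and 1.30 against 2.05 and 1.90 without weights, and the sarcomere median was 0.33. Tmod4, Myoz1, Casq1, Sypl2, Myot and Pygm were below 2-fold then, at 0.87, 0.81, 0.68, 0.89, 0.84 and 0.81, and Cdkn1c was at -0.96. In WT the weighted medians were 0.70 for the sarcomere list and 1.03 for the sarcoplasmic reticulum list. Weighted to depth instead, Pvalb and Myh4 were at 1.33 and 1.52 in KO and at 1.13 and 1.77 in WT, against 2.91 and 2.76 in WT without weights. Gpd1 and Mybpc2 were then at 1.37 and 3.01 in WT in place of 3.57 and 4.81, and Tmod4 and Myoz1 at 1.03 and 0.75 in place of 2.07 and 1.43.

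**Figure D3:**
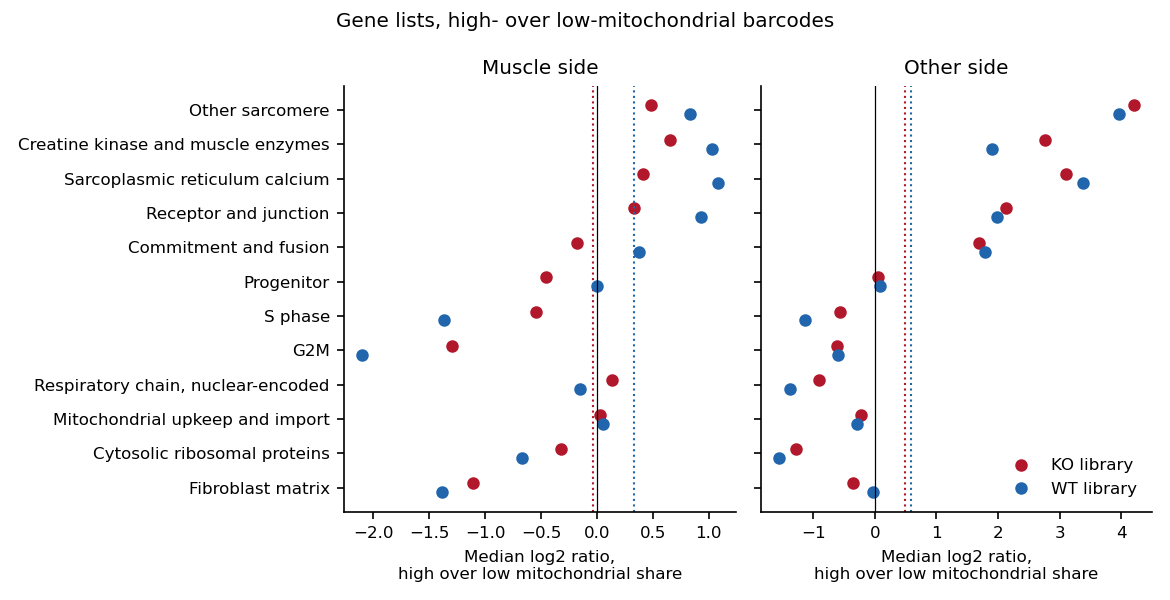
Median log2 ratio of gene lists, high-mitochondrial over low-mitochondrial barcodes, on the muscle side (left) and the other side (right), in the KO (red) and WT (blue) libraries. Dotted lines are the medians over all genes with at least 10 CPM, -0.04 and 0.33 on the muscle side and 0.49 and 0.58 on the other side. Sarcomere genes lie to the right of their line in all 4 comparisons, at 0.48 and 0.83 on the muscle side and 4.21 and 3.97 on the other side, and cytosolic ribosomal protein genes to the left.

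Nuclear genes for mitochondrial proteins had small ratios on the muscle side. None of the 76 nuclear-encoded respiratory chain subunits was counted as higher or lower on the muscle side, and their median log2 ratio was 0.13 in KO and -0.15 in WT. The KO sign turned with all UMIs as the denominator, to -0.05. The mitochondrial upkeep and import list had medians of 0.03 in KO, which all UMIs as the denominator turned to -0.16, and 0.05 in WT, which TMM turned to -0.43. Members higher in WT included Chchd10, Ppargc1b and Lrpprc, of which Ppargc1b and Lrpprc were at log2 ratios of -0.57 and -0.28 with a muscle limit of 5%. Chchd10 was at 181 against 69.0 CPM in WT. Cytosolic ribosomal proteins had medians of -0.32 in KO and -0.67 in WT with no member past 2-fold.

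Stress lists other than hypoxia and glycolysis had medians between -0.63 and 0.47 on the muscle side. The hypoxia and glycolysis medians were 0.10 in KO and 0.65 in WT. The heat shock medians were -0.22 in KO and -0.13 in WT. The p53 and apoptosis medians were 0.06 in KO, turning to -0.14 with all UMIs as the denominator, and 0.47 in WT. In WT Bcl2l1 (an inhibitor of apoptosis) was at 77.5 against 32.2 CPM and Eda2r at 141 against 58.1 CPM, with Bcl2l1 at a log2 ratio of -0.18 with a muscle limit of 5%. The integrated stress response median was -0.63 in KO, where the serine synthesis gene Phgdh was at 63.6 against 162 CPM, and 0.17 in WT, which TMM turned to -0.36.

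The make-up of the mitochondrial UMIs, which did not enter the choice, was close between high- and low-mitochondrial muscle-side barcodes for most protein genes. mt-Co1 took 9.82% against 10.3% of the mitochondrial UMIs in KO and 7.49% against 7.59% in WT. mt-Atp6, a subunit of the ATP synthase, took 19.1% against 18.3% in KO and 18.7% against 18.3% in WT. The RNAs of the mitochondrial ribosome took a larger part. mt-Rnr2, the large ribosomal RNA, was at 5.58% against 4.40% in KO (ratio 1.27, 1.26 to 1.28) and 7.14% against 5.19% in WT (1.37, 1.36 to 1.39). mt-Rnr1, the small one, had a ratio of 1.16 in both clones. mt-Nd6, the only protein gene read from the other strand, took less, with ratios of 0.712 (0.673 to 0.752) in KO and 0.661 (0.552 to 0.786) in WT. On the other side these ratios lay further from 1, at 2.12 in KO and 2.20 in WT for mt-Rnr2 and at 0.456 and 0.669 for mt-Nd6.

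Levels differed between bins on both sides of the limit as well as across it. In KO, Myh4 was at 240, 243, 448, 968, 1796, 2317 and 3823 CPM from the lowest bin (up to 5%) to the highest (above 50%). Ttn, the giant spring protein of the sarcomere, was at 3248, 4617, 5915, 6260, 7605, 15714 and 19611 CPM in these bins, with its largest step between 20 to 30% and 30 to 50%. Cdkn1c was at 1501, 1947, 1510, 802, 322, 248 and 228 CPM. Summed cytosolic ribosomal protein genes were at 240741 CPM in the lowest and 157372 CPM in the 20 to 30% bin, and at 94833 and 64347 CPM in the last bins. In WT, Myh4 was at 52.2, 64.1, 122, 478, 715 and 329 CPM up to the 30 to 50% bin, which holds 21 barcodes, with its largest step, in fold, between 10 to 15% and 15 to 20%, and Ttn at 3051, 5748, 7054, 10322, 15246 and 22309 CPM.

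**Figure D4:**
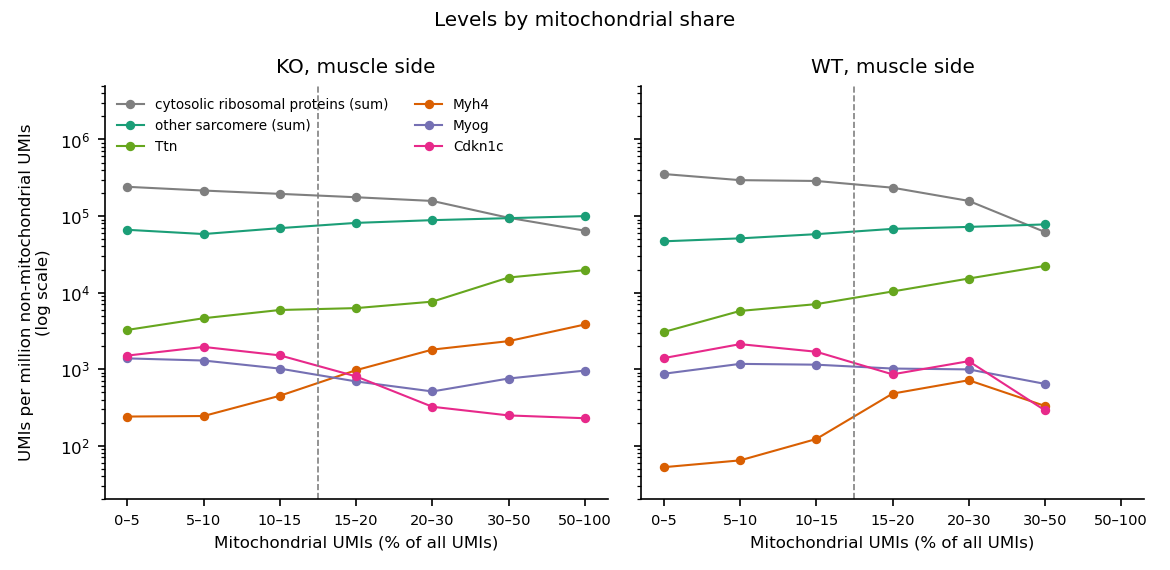
Levels on the muscle side (y axis, CPM of non-mitochondrial UMIs, log scale) by mitochondrial share (x axis, % of all UMIs), in the KO library (left) and the WT library (right), for summed lists and single genes. The dashed line is the 15% limit, and the WT bin above 50%, with 3 barcodes, is left out. Myh4 and Ttn go up across the KO bins, to 3823 and 19611 CPM, while Cdkn1c and the ribosomal protein genes go down, to 228 and 64347 CPM.

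Genes with a long span, from start to end in the GENCODE vM21 annotation with introns included, took a larger part of the UMIs in most high-mitochondrial sets. The median share of non-mitochondrial UMIs in genes over 100 kb was 8.40% against 7.03% on the KO muscle side and 15.1% against 9.17% on the WT muscle side. On the other side it was 32.3% against 10.7% in KO and 36.7% against 9.31% in WT. Among KO muscle-side barcodes it was 8.01% at 15 to 20% and 7.60% at 20 to 30% mitochondrial UMIs, close to the 8.27% of the 10 to 15% bin, and 19.0% at 30 to 50% and 24.8% above 50%. In WT it was 10.2% at 15 to 20%, 17.7% at 20 to 30% and 33.2% at 30 to 50%, against 9.76% at 10 to 15%. The step thus came above 30% in KO and above 20% in WT.

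The genes counted as higher had the same tilt, except on the KO muscle side. There their median span was 22.7 kb, against 22.3 kb for all genes tested, while the lower genes had 8.27 kb. On the WT muscle side the higher genes had a median span of 106 kb against 30.6 kb for all tested, and the lower ones 6.91 kb. Of the WT genes over 300 kb 41.1% were higher, against 2.74% of those under 10 kb. Pvalb and Myh4, with spans of 15.3 and 22.4 kb, are not long genes, whereas Ctnna3, Rbfox1 and Gphn span 1574, 1526 and 458 kb. Ryr1 and Cmya5, named above among the muscle genes, span 122 and 104 kb. The span of Ttn is not given here. Its largest KO step, between the 20 to 30% and 30 to 50% bins, came where the share of long genes also went up. The part of gene span in the muscle results was not tested. Nuclear-retained RNAs such as Malat1 are not analysed here.

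**Figure D5:**
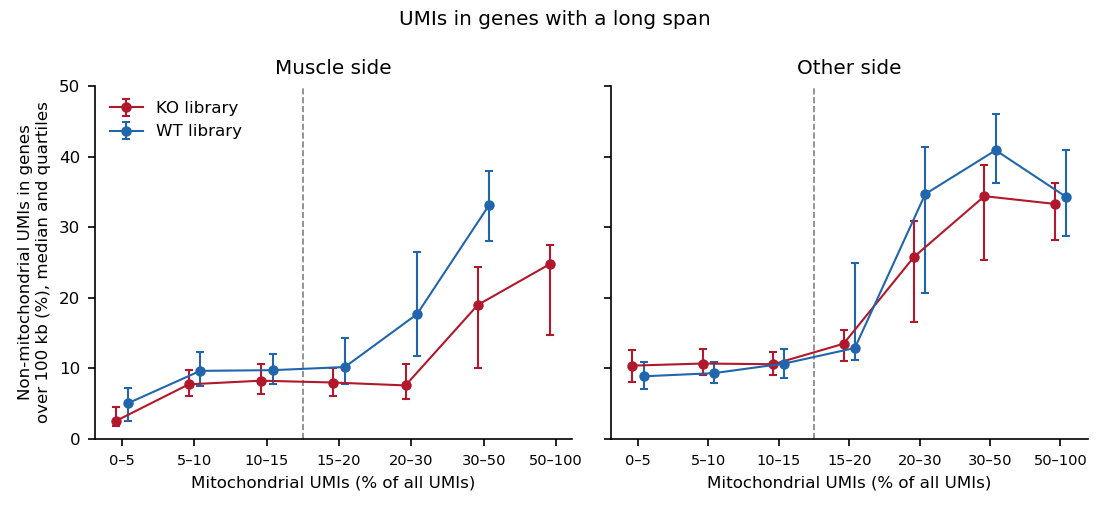
Share of non-mitochondrial UMIs in genes with a span over 100 kb (y axis, %, median and quartiles over barcodes) by mitochondrial share (x axis, % of all UMIs), on the muscle side (left) and the other side (right), in the KO (red) and WT (blue) libraries. The dashed line is the 15% limit, and bins of fewer than 10 barcodes are left out. On the KO muscle side the median is 2.6% in the bin up to 5% mitochondrial UMIs. It stays near 8% from 5 to 30% (7.60% at 20 to 30%) and is 19.0% and 24.8% in the bins above.

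On the other side the high-mitochondrial barcodes differed from the low-mitochondrial ones in far more genes. In KO 1525 of 4961 genes were higher (30.7%) and 611 lower (12.3%), and in WT 1826 of 4753 were higher (38.4%) and 838 lower (17.6%). The balance of these counts depends on the scaling. With TMM factors it was 437 higher and 1659 lower in KO and 539 and 1865 in WT, with shifts of -0.69 and -0.86 on the log2 scale. With all UMIs as the denominator it was 266 and 1604 in KO and 707 and 1282 in WT. Both clones shared 1186 higher genes, 77.8% of the KO and 65.0% of the WT ones, and 494 lower genes.

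Long genes were among those with the highest ratios. Agbl1 (a tubulin deglutamylase, span 895 kb) was at 415 against 0.907 CPM in KO, and at 10.9 against 0.455 CPM in WT. Sorbs2, a cytoskeletal adaptor (320 kb), was at 249 against 1.15 CPM in KO and 411 against 2.07 CPM in WT. Dlg2, a scaffold protein (1973 kb), was at 152 against 3.18 CPM in KO and 1209 against 8.38 CPM in WT. Trp63 (p63), Ctnna3 and Dysf (dysferlin, a muscle membrane repair protein) were at 191, 158 and 325 CPM in the high-mitochondrial KO barcodes against 0.978, 1.15 and 3.65 CPM, and at 158, 176 and 328 CPM against 1.37, 1.73 and 2.27 CPM in WT. The size of these ratios depends on depth and muscle content. Weighted to depth, the WT log2 ratios of Sorbs2, Dlg2 and Dysf were 3.09, 3.46 and 3.28 in place of 7.64, 7.17 and 7.17, and in KO Agbl1 was at 10.11 in place of 8.84 and Trp63 at 5.97 in place of 7.61. Weighted to the muscle share, Sorbs2 was at 3.19 in KO in place of 7.76 and at 4.62 in WT. Short genes were among those with the lowest ratios. The lowest in KO was Tagln (6.44 kb), at 7.81 against 50.1 CPM, and the histones H1f5 (0.743 kb) and H2ac24 (0.482 kb) were low in both clones, with H1f5 at 62.5 against 336 CPM in KO and 43.5 against 234 CPM in WT. The metallothionein gene Mt1 (1.25 kb), the lowest in WT, was at 244 against 744 CPM in KO and 10.2 against 71.8 CPM in WT, where its log2 ratio of -2.82 was -4.80 with weighting to depth and -1.68 without the barcodes of the lowest mitochondrial bin.

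Muscle genes that the choice did not use were higher on the other side as well. Of the sarcomere list, 36 of 39 were higher in KO and 30 of 37 in WT, with medians of 4.21 and 3.97. The share of all genes was 30.7% and 38.4%. Members such as Myh8 in KO reached 50 CPM in the high-mitochondrial set only, so these counts are given as description. With the low-mitochondrial barcodes weighted to the same muscle share the medians were 1.05 and 1.71, and weighted to the same depth 3.4 and 2.66. Ttn was at 6765 against 80.2 CPM in KO and 7219 against 250 CPM in WT, and Myh8 at 1230 against 35.4 CPM in KO and 959 against 54.8 CPM in WT. The ratio of Ttn to Acta1 UMIs was not that of the muscle side: in high-mitochondrial barcodes it was 3.73 on the other side of KO and 0.344 on its muscle side, and 10.3 and 1.55 in WT. In low-mitochondrial other-side barcodes it was 0.328 in KO and 2.43 in WT. After thinning every barcode to 2000 non-mitochondrial UMIs, which left out 14 KO and 20 WT high-mitochondrial barcodes, Ttn was detected in 66.7% of the KO ones against 8.69% of the low-mitochondrial ones, and in 60.5% against 21.3% in WT. Ckm was detected in 34.4% against 4.07% in KO and in 4.19% (1.70 to 8.45) against 1.19% (0.933 to 1.49) in WT. The low-mitochondrial shares, which include free RNA, are the background for these values. Without thinning, the shares of Ttn were 79.1% against 67.7% in KO and 72.2% against 76.3% in WT. Those of Ckm were then 57.8% against 41.2% in KO and 11.2% against 11.1% in WT. Unthinned shares also depend on depth, which differs between the sets.

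Progenitor and cell cycle transcripts were present on the other side too. Pax7 was detected after thinning in 25% against 25.2% of barcodes in KO and in 24.6% against 23.4% in WT, and was at 178 against 167 CPM in KO and 156 against 141 CPM in WT. Ttn and Pax7 were found together in 8.85% of the thinned high-mitochondrial KO barcodes against 1.95% of the low-mitochondrial ones, and in 5.99% against 3.83% in WT. Ttn without Pax7 was found in 58.9% against 7.22% in KO and 56.3% against 18.6% in WT. Pax7 without Ttn was found in 13.5% against 24.6% in KO and 18% against 20.2% in WT. After thinning, most high-mitochondrial barcodes with either gene thus showed 1 of them only, and so did most low-mitochondrial ones. Thinning misses RNA that is present. Without thinning, Pax7 was detected in 37.9% of the high-mitochondrial other-side barcodes in KO and 40.6% in WT. Whether a barcode held both RNAs can therefore not be told from the joint shares. The G2M medians were -0.61 and -0.60, with 7 of 22 genes lower in KO and 6 of 25 in WT, where 12.3% and 17.6% of all genes were lower. The KO median turned to 0.17 with weighting to the muscle share, and the WT median to 0.17 with weighting to depth. Cytosolic ribosomal protein genes were lower almost throughout, 79 of 80 in KO and 80 of 80 in WT, with medians of -1.28 and -1.56. Rplp0, of the ribosomal stalk, was at 1852 against 5137 CPM in KO and 1558 against 5141 CPM in WT. Of the 76 nuclear-encoded respiratory chain genes 33 were lower in KO and 64 in WT.

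Between the clones, the high-mitochondrial muscle-side barcodes differed in 306 of 3659 genes higher in KO (8.36%) and 692 lower (18.9%). With TMM factors the counts were 636 and 408, a shift of 0.29 on the log2 scale. The leading genes differed alike in the low-mitochondrial barcodes, so the values of that set are given beside them. For S100a4 (calcium-binding) the KO level was 193 CPM and that of WT 3.52 CPM. The log2 ratio, 5.78, was also 5.78 in the low-mitochondrial sets. Serpinb1a had 5.74 and 5.71, Lgals3 (galectin-3) 5.15 and 5.32, Spp1 5.15 and 5.41, and Ecrg4 4.59 and 4.30 in the high- and the low-mitochondrial sets. Of the Y-linked genes, Eif2s3y had no UMI in KO, which is at least 476-fold lower than the 74.0 CPM of WT against a limit of 3 UMIs, and Uty 1 UMI in KO against 142 in WT. The adhesion receptor Adgrl3 had 4 UMIs (0.207 CPM) in KO, against 551 CPM in WT.

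Among muscle genes, KO had more Ckm (1607 against 466 CPM), Myh1 (4828 against 1242 CPM) and Myh4 (1318 against 513 CPM) in high-mitochondrial barcodes. Their log2 ratios, 1.79, 1.96 and 1.36, were smaller than the 2.42, 2.85 and 2.22 of the low-mitochondrial barcodes, and whether they differ could not be tested with 1 library a clone. Of the muscle enzyme list 12 of 18 were higher in KO and 1 lower, where 8.36% of all genes were higher and 18.9% lower. Of the receptor and junction list 5 of 8 were lower, with a median of -1.02 that turned to 0.23 with a muscle limit of 5%.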

How the data were processed

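Single cells were measured by 3′ droplet sequencing (10x Genomics). The deposited values are whole-number UMI counts for every gene in each barcode, and the file headers name Cell Ranger 7.2.0. The submitters' processing notes list GRCm39, Cell Ranger and Seurat, and the annotation release is not given in the sources used here. The files list 25906 genes, 37 of them mitochondrial, and the total counts per library are given above.

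From these counts, barcodes with at least 1000 genes were placed in sets by the limits above. UMIs were summed per set and library and divided by non-mitochondrial UMIs. Genes were compared where the higher set had at least 50 CPM, and list medians use members with at least 10 CPM in the higher set. Where 2 IDs share a symbol, the ID with more UMIs was used. Intervals for sums (Poisson), shares (Clopper-Pearson) and ratios (conditional on the summed count) are exact, at 95%, and cover counting error only. Shares of barcodes with a UMI were computed after thinning to 2000 non-mitochondrial UMIs. Scrublet (scanpy 1.11.5, expected rate 0.06) called 3.31% of KO and 0% of WT barcodes, and doublets were kept, with an alternative that drops the 6% highest scores. TMM factors came from edgeR 4.0.16 in R 4.3.3 and were used only as another scaling, with no test. Other steps used Python 3.11.15, numpy 2.4.6, scipy 1.17.1 and pandas 2.3.3. Gene spans came from GENCODE annotation of an older mouse build, matched by gene ID, and were found for at least 99.7% of the genes compared. The script for the calls was tested on simulated counts.

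The members, gene lists and rules were chosen with earlier results of these data known. Named genes are, per library, the 12 highest and 12 lowest ratios on the muscle side and the 6 highest and 6 lowest on the other side and between clones, up to 12 shared genes per direction, up to 4 members per list, and the myogenic regulators, of which those with most bearing are printed. Ttn, Myh7, Myh8, Tnnt1, Tnnt3 and Tnnc1 were added after their values were seen. Alternatives for the limits, scaling, weighting, doublets and level minimum were recomputed, and their effect is given in the closing section.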

Additional observations from a re-analysis of the deposited data

Results flagged for a closer look

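Summed levels of 6 gene lists, high- over low-mitochondrial barcodes, had opposite signs in the KO and WT libraries. The differences were not tested, since each clone has 1 library. On the muscle side the summed log2 ratio of the nuclear-encoded respiratory chain genes was 0.16 in KO and -0.15 in WT. That of the integrated stress response genes was -0.62 in KO and 0.07 in WT, that of the immediate early genes -0.22 in KO and 0.32 in WT, and that of the progenitor genes -0.08 in KO and 0.42 in WT. On the other side that of the creatine kinase and muscle enzyme genes was 0.16 in KO and -0.57 in WT, although the list medians, 2.77 and 1.91, had 1 sign. That of the cartilage and bone genes was 0.33 in KO and -0.85 in WT, from sums of 87.9 against 69.8 CPM in KO and 22.4 against 40.4 CPM in WT.

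Barcodes under 1000 genes, which enter no comparison, also held high-mitochondrial muscle-side profiles. There were 232 in KO, of 1111 such barcodes, with a median of 1054 UMIs and a median mitochondrial share of 66.3%. In WT there were 33, of 577, with medians of 681 UMIs and 55.0%. Ckm was at 1180 CPM in the KO and 193 CPM in the WT ones.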

How the results depend on the processing

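No paired analysis was possible because each clone has 1 library and no replicate numbers. The cause of the changes below was not tested. Of 1534 recomputed list medians 1315 moved by less than their criterion and 4 reversed, and of 4312 values of named genes 2263 moved little and 16 reversed. The alternatives of weighting to the muscle share and of leaving out low-mitochondrial barcodes up to 5% were chosen after seeing the data, and the second moved none of the counts by over 1.5 times. Limits are that precision rests on 109 WT muscle-side barcodes, that depth differs between sets, and that intervals cover counting error only.

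With a mitochondrial limit of 10%, the share above it was 63.0% on the KO and 30.6% on the WT muscle side and 10.8% on the KO and 4.79% on the WT other side. The high over low ratio of median non-mitochondrial UMIs was 1.16, 0.846, 0.725 and 0.332 in the same order, against 0.759, 0.427, 0.130 and 0.166 at 15%. Genes higher and lower were 21 and 11 (KO muscle), 10 and 14 (WT muscle), 63 and 7 (KO other) and 427 and 3 (WT other), and 237 were lower in KO than in WT. At 20% the share was 16% on the KO and 4.68% on the WT muscle side, 97 genes were higher in KO, 1277 were higher and 301 lower in WT, and 574 were higher and 1236 lower in KO than in WT. With at least 500 genes the share was 28.6% (KO muscle) and 3.76% (WT other), and with at least 2000 genes 37.6% (KO muscle), 3.13% (KO other) and 2.08% (WT other).

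With a muscle limit of 0.5% the other-side shares were 3.21% in KO and 2.41% in WT, and 707 genes were higher on the WT muscle side. At 5% the shares were 5.22% (WT muscle), 8.02% (KO other) and 3.86% (WT other), and the KO other-side depth ratio 0.272. Genes higher and lower were then 21 and 20 (KO muscle), 1170 and 513 (WT other) and 493 and 276 (KO over WT), with 448 lower on the WT muscle side and 700 higher on the KO other side. At 1% of non-mitochondrial UMIs the shares were 36.4% (KO muscle), 10.5% (WT muscle), 2.37% (KO other) and 2.5% (WT other), 630 genes were higher on the WT muscle side and 138 lower on the KO other side.

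With all UMIs as the denominator 20 genes were higher on the KO muscle side, 153 were higher and 106 lower on the WT muscle side, 266 and 1604 on the KO and 707 and 1282 on the WT other side. With TMM the numbers higher and lower were 85 and 301 (WT muscle), 437 and 1659 (KO other), 539 and 1865 (WT other) and 636 and 408 (KO over WT). With the mean over barcodes 138 were higher and 27 lower on the KO and 725 higher on the WT muscle side, and 995 lower on the KO other side. Weighted to depth, 32 were higher and 18 lower on the KO and 691 and 9 on the WT muscle side, and 2308 higher on the KO other side. Weighted to the muscle share, 15 were higher and 5 lower on the KO and 17 lower on the WT muscle side, with 176 of 206 KO and 186 of 187 WT other-side barcodes usable. Without the 6% highest doublet scores 11 were lower on the WT muscle side. With at least 10 CPM the numbers higher and lower were 122 and 170 (KO muscle), 968 and 169 (WT muscle) and 784 and 1473 (KO over WT), with 2801 (KO) and 3286 (WT) higher on the other side. With at least 200 CPM they were 16 and 8 (KO muscle), 115 and 12 (WT muscle), 385 and 308 (KO other), 592 and 419 (WT other) and 98 and 169 (KO over WT).

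Reversed values arose mostly with the muscle limit of 5%. In WT the G2M median was then 0.19, and log2 ratios were -0.13 for Ano5, -0.18 for Bcl2l1, -1.85 for Cdh2, -2.55 for Chrnb1, -0.11 for Chrng, 0.44 for Cks2, -1.38 for Ctnna3, -0.20 for Itga7, -0.28 for Lrpprc, 0.38 for Mest, -0.60 for Musk, -0.57 for Ppargc1b, 0.42 for Smc4 and -0.24 for Tmem182. Between clones the receptor and junction median was 0.23 and the smooth muscle median 0.97. With doublet scores removed, Slpi was at 0.57 and Timp1 at 0.02 in KO. Weighted to the muscle share, the commitment and fusion median of the KO other side was -0.05.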

Other observations

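Smooth muscle genes had a positive median and a lower sum on the KO muscle side. The median log2 ratio of the list was 0.30 in KO and 0.38 in WT, the second turning to -0.05 with TMM factors, while the log2 ratio of the sums was -0.89 and -0.19. Acta2 alone was at 239 against 806 CPM in KO, of list sums of 598 against 1108 CPM, and at 1602 against 2134 CPM in WT. On the other side the KO median was 2.54 and the sum ratio 0.51.

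Oxidative stress and metallothionein genes were lower on the other side, with medians of -0.80 in KO and -1.16 in WT, and 6 of 14 and 5 of 10 members lower, where 12.3% and 17.6% of all genes were lower. The hypoxia and glycolysis medians were 0.10 in KO and 0.65 in WT on the muscle side, the first turning to -0.09 with all UMIs as the denominator. Between clones 7 of 10 hypoxia and glycolysis members were higher in the high-mitochondrial KO barcodes, where 8.36% of all genes were higher. The list median was 1.26, and 1.73 in the low-mitochondrial barcodes.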
